A study of Mus musculus with 8 samples.

Results

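The transcripts described here are the parts of the type I and type II interferon circuit that a macrophage needs in order to make interferon beta and to respond to it. They are 10 genes: the ligand Ifnb1, the receptor chains Ifnar1, Ifnar2, Ifngr1 and Ifngr2, the Janus kinases Jak1, Jak2 and Tyk2, and the feedback inhibitors Socs1 and Socs3. They were listed by name for their place in the circuit, with earlier results of these data known. All 10 were found by symbol among the 50615 genes of the expression table. All 10 passed the filter on low counts, which kept 17625 genes. Ifnb1 passed it only through its counts in stimulated cells. The comparison asks whether bone marrow-derived macrophages of Ncoa6-knockout mice carried less transcript for the ligand, its receptors, the kinases or the inhibitors, at rest and after an inflammatory stimulus.

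Ncoa6 encodes a nuclear receptor coactivator. The libraries came from bone marrow-derived macrophages (BMDMs), which were obtained by keeping bone marrow cells of C57BL/6 mice with 20 ng/ml M-CSF for 6 days. Each of the 4 groups held 2 libraries. The mice behind the libraries of a group differed, by the methods. The control mice were Ncoa6 fl/fl (labelled WT, here Ncoa6-sufficient) and the knockout mice were Ncoa6 fl/fl LysM CRE (here Ncoa6-KO). The floxed allele was thus shared by all 4 groups. The Cre was driven by the lysozyme locus and was carried only by the knockout mice. The age and sex of the mice are not given in the sources used here. Cells of each genotype were left in medium alone, or received 100 ng/ml lipopolysaccharide (LPS) over 4 h before 200 µg/ml monosodium urate (MSU) crystals were added over 2 h.

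Total counts ranged from 25281955 to 33673552 per library. The scaling factors ran from 0.766 to 1.29 and split by culture condition, all libraries of cells in medium alone lying above those of stimulated cells. Ncoa6 itself checked the labels. By the paper the floxed region is a single exon, so counts over the whole gene cannot tell intact transcript from transcript without that exon. Its normalized counts were 1515 and 1405 in Ncoa6-sufficient and 784 and 622 in Ncoa6-KO cells in medium alone, and 1297 and 1173 against 563 and 526 after LPS and MSU. The knockout libraries held 48.2% and 44.1% of the control level (log2 fold change −1.05 ± 0.117 and −1.18 ± 0.124, SE; edgeR adjusted p = 0.00236 and 0.00189). The first of these calls was lost without Ncoa6-sufficient replicate 1 in medium alone (adjusted p = 0.0578). All 9 macrophage markers examined were detected in every group, whereas of 13 markers of T and NK cells 8 (Cd3g, Trac, Cd8a, Ncr1, Nkg7, Gzma, Gzmb and Prf1) were at 0 in all 8 libraries. Of the other 5, Cd3e, Cd3d, Klrb1c and Eomes had at most 3 counts in a library, and Cd4 had 19 to 147 counts.

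As background, macrophages that sense LPS through TLR4 switch on Ifnb1 through IRF3 and NF-kappaB. Secreted interferon beta binds IFNAR1 and IFNAR2, which carry TYK2 and JAK1, and the kinases phosphorylate STAT proteins. STAT2 works with IRF9 in the factor ISGF3, which drives interferon-stimulated genes. Interferon gamma, made mainly by T and NK cells, binds IFNGR1 and IFNGR2, which carry JAK1 and JAK2. SOCS1 and SOCS3 are induced by this signalling and by other cytokines and restrain it, SOCS1 by blocking the kinases and SOCS3 mainly at receptors that use STAT3.

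The promoters of Ifnb1, Socs1 and Socs3 are shown because these 3 genes had the largest responses to LPS and MSU among the 10, and because each holds a match to a motif of the factors above. Each line gives 90 bases of the gene's own strand, 5′ to 3′, from RefSeq on GRCm38.p6, with the motif match in capitals.
Ifnb1: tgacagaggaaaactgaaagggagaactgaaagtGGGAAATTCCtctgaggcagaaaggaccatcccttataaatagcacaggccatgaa
Socs1: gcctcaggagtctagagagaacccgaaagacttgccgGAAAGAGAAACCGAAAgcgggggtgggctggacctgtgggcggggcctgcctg
Socs3: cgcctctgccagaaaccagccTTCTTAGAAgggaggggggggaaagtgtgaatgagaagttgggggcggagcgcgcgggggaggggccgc
The Ifnb1 stretch lies at chr4:88522855-88522944, that of Socs1 at chr16:10785567-10785656 and that of Socs3 at chr11:117969452-117969541, all on the minus strand and all upstream of the RefSeq start. The capitals in Ifnb1 match a kappaB pattern (GGG, any 3 bases, TTCC) and begin 116 bases before that start (position -116). In Socs1 they are 2 overlapping matches to an ISRE pattern (GAAA, any 2 bases, GAAA), the element that ISGF3 and IRFs bind, beginning at -83 and -77. In Socs3 they match a GAS pattern (TTC, any 3 bases, GAA), the element of STAT dimers, beginning at -154.

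The same 3 motifs were searched on both strands in the 250 bases before the RefSeq start of every gene, and all 10 members had a window. Ifnar2 held a GAS match at -214 and Ifngr2 a kappaB match at -75. No match to the 3 letter patterns was found in the windows of Ifnar1, Ifngr1, Jak1, Jak2 or Tyk2. Among 32851 windows, 7.02% held the GAS pattern, 2.98% the ISRE pattern and 4.65% the kappaB pattern. A match describes these letters only and does not show binding.

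Among the receptors, Ifnar2, Ifnar1 and Ifngr2 stood in this order on the plus strand of chromosome 16 within 192841 bp (GRCm38), with gaps of 79648 bp and 39630 bp between them. Il10rb, a chain of the interleukin-10 receptor, lay in the first gap. Socs1 was on the same chromosome, far from the cluster. Ifnb1 and Jak1 were on chromosome 4, Ifngr1 on chromosome 10, Jak2 on chromosome 19, Tyk2 on chromosome 9 and Socs3 on chromosome 11.

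**Figure D1:**
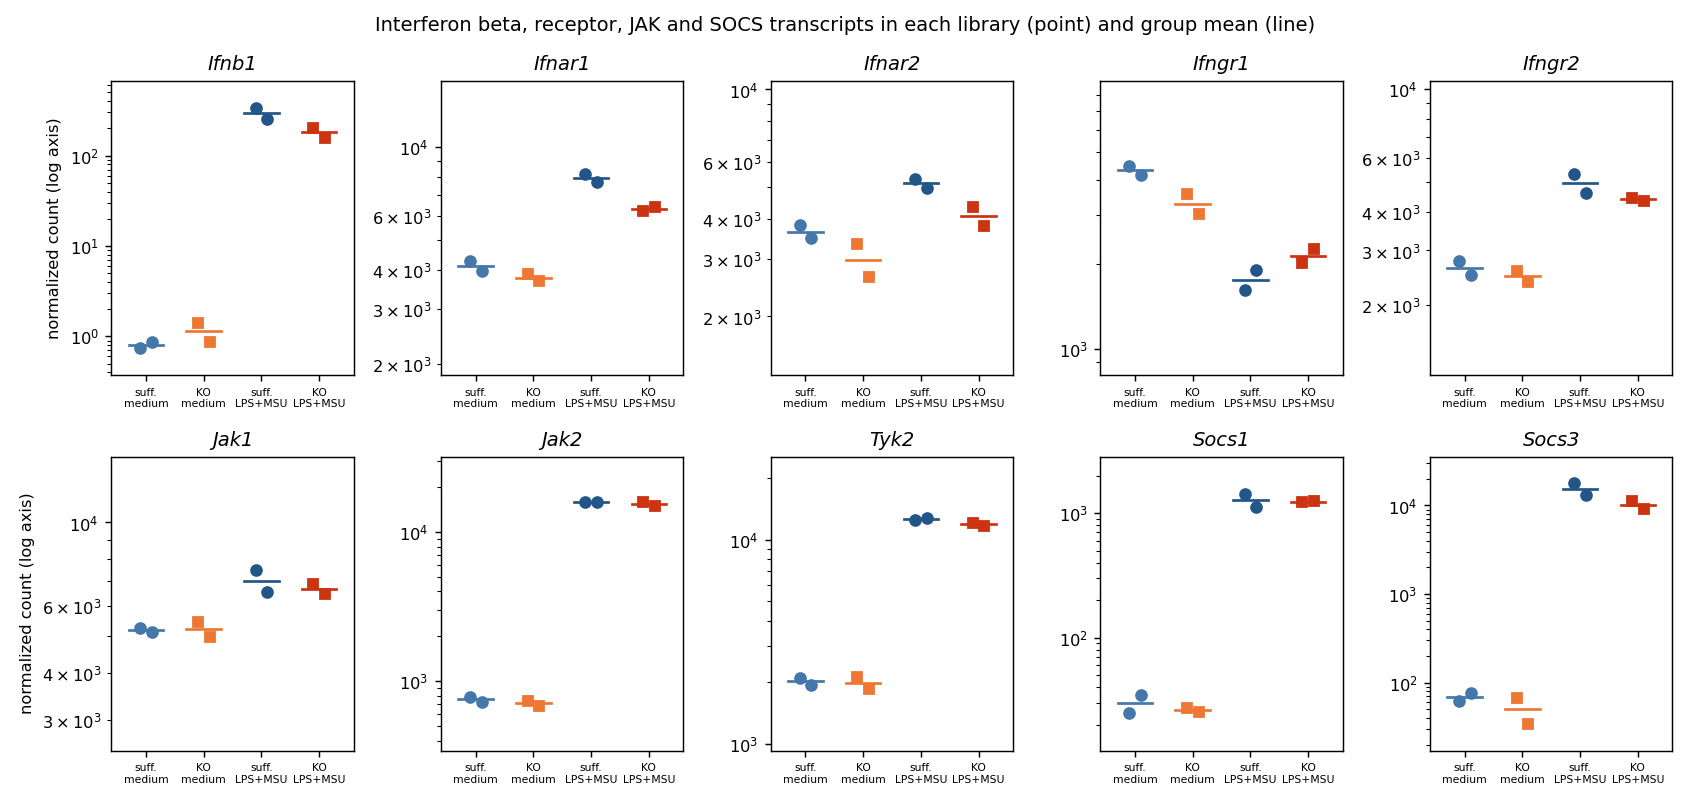
Normalized counts (log axis, a separate range for each gene) of the 10 genes in the 8 libraries. Points are libraries, 2 per group, and lines are group means. From medium alone to LPS and MSU, 9 genes lie higher and Ifngr1 lies lower in both genotypes, and these shifts exceed the gaps between the genotypes.

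In resting cells, no member differed between the genotypes past the threshold. With edgeR, 0 of 10 had an adjusted p under 0.05, against 1.88% of all genes tested (0.573% higher and 1.3% lower), and 2 of 10 (Ifnar2 and Ifngr1) had an unadjusted p under 0.05, against 12.8% of all genes. DESeq2 and limma-voom also called 0 of 10. The libraries of the 2 genotypes did not overlap for 4 of the 10, Ifnb1, Ifnar1, Ifnar2 and Ifngr1, against 43.1% of all genes tested. Of these 4, Ifnb1 rested on 1 or 2 counts per library.

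Ifnb1 was barely detected at rest. It had 1 count in each Ncoa6-sufficient library in medium alone, and 2 and 1 counts in the Ncoa6-KO libraries. The sums of 2 and 3 counts have exact 95% Poisson intervals of 0.242 to 7.22 and 0.619 to 8.77 counts, which cover counting error only. Neither sum exceeded the detection limit of 3 counts, so a difference in resting Ifnb1 was not detectable at this depth, and no fold is given.

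The other interferon ligands gave as little signal. Of 20 further ligand genes (13 interferon alpha genes, Ifnab, Ifne, Ifnk, Ifnz, Ifng, Ifnl2 and Ifnl3), 10 had no count in any library and none reached a sum of 10. In medium alone the 20 genes together had 1 count in Ncoa6-sufficient and 5 counts in Ncoa6-KO cells, all of them in Ifnz. After LPS and MSU they had 16 and 5 counts, and the highest total over all libraries was 8, in Ifna5. The interferon alpha genes are near-identical copies, so how counts were split among them is uncertain. Ifng, the ligand of the second receptor pair, had 1 count in all, in the Ncoa6-KO group after LPS and MSU.

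The type I receptor chains were well measured. Ifnar1, the chain that carries TYK2, had 4289 and 3970 normalized counts in resting Ncoa6-sufficient cells and 3892 and 3684 in resting Ncoa6-KO cells. The log2 fold change was −0.12 ± 0.093 (SE), with a 95% interval of −0.33 to 0.08 (adjusted p = 0.663). Ifnar2, the chain that binds interferon beta together with IFNAR1 and carries JAK1, had 3821 and 3478 against 3337 and 2643 normalized counts. Both knockout libraries were below both controls, by −0.29 ± 0.123 on the log2 scale (interval −0.56 to −0.02, adjusted p = 0.347). The lower bounds correspond to 0.796 of the control level for Ifnar1 and 0.679 for Ifnar2.

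Of the type II receptor chains, Ifngr1, which binds interferon gamma, showed the lower value in the knockout. Its normalized counts were 4478 and 4157 in Ncoa6-sufficient and 3569 and 3011 in Ncoa6-KO cells at rest. The groups did not overlap and the knockout held 76.2% of the control level, but the adjusted p was 0.143 (log2 fold change −0.39 ± 0.117, interval −0.65 to −0.13). Ifngr2, the partner chain that carries JAK2, had 2774 and 2503 against 2581 and 2368. These libraries overlapped (log2 fold change −0.09 ± 0.103, interval −0.32 to 0.14).

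The kinases had values near 0. Jak1, which serves both receptors, had 5263 and 5135 normalized counts in Ncoa6-sufficient and 5443 and 4966 in Ncoa6-KO cells, a log2 fold change of 0.00 with an interval of −0.22 to 0.23. Tyk2 had 2100.0 and 1948 against 2127 and 1852 (−0.02, interval −0.25 to 0.20). Jak2 had 790 and 728 against 736 and 687 (−0.09, interval −0.32 to 0.13). For all 3 kinases the libraries of the genotypes overlapped, and the lower bounds correspond to 0.856 (Jak1), 0.84 (Tyk2) and 0.802 (Jak2) of the control level.

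The inhibitors were low at rest and less precisely measured. Socs1 had 24.8 and 34.4 normalized counts in Ncoa6-sufficient and 27.1 and 25.5 in Ncoa6-KO cells (log2 fold change −0.15 ± 0.248, interval −0.70 to 0.39). Socs3 had 62.3 and 75.7 against 67.4 and 34.2, so the 2 knockout libraries lay on either side of a control library. Its log2 fold change of −0.40 ± 0.302 (adjusted p = 0.666) became −1.0 without Ncoa6-KO replicate 1 in medium alone and −0.03 without replicate 2. The interval of −1.07 to 0.27 gives no direction.

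**Figure D2:**
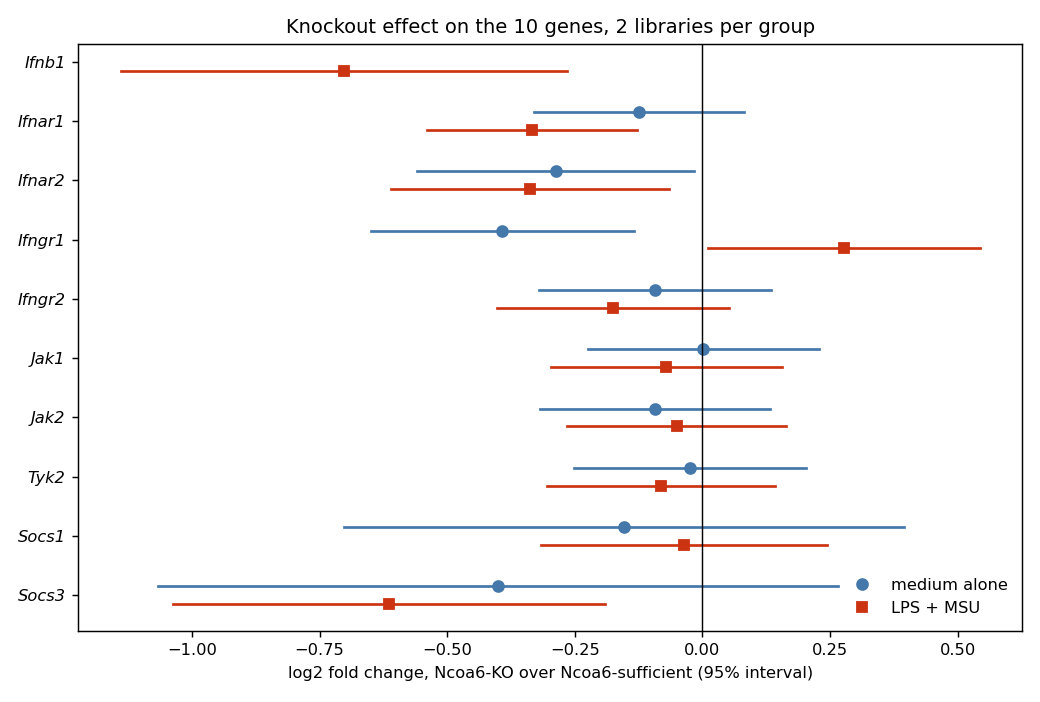
Log2 fold change of each gene in Ncoa6-KO over Ncoa6-sufficient cells, in medium alone (circles) and after LPS and MSU (squares), with 95% intervals from edgeR and 2 libraries per group. Ifnb1 in medium alone is left out because it had 1 or 2 counts per library. In medium alone the intervals of Ifnar2 and Ifngr1 lie below 0. After LPS and MSU the intervals of Ifnb1, Ifnar1, Ifnar2 and Socs3 lie below 0 and that of Ifngr1 lies above 0. No gene passed the adjusted threshold in either condition.

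After LPS and MSU, Ifnb1, Socs3 and the type I receptor chains had lower values in the knockout, but no member was called. With edgeR, 0 of 10 had an adjusted p under 0.05, against 3.59% of all genes tested (1.96% higher and 1.63% lower), and 5 of 10 had an unadjusted p under 0.05 (Ifnb1, Ifnar1, Ifnar2, Ifngr1 and Socs3), against 17.4%. DESeq2 called 1 of 10, Ifnar1, and limma-voom called 0. The libraries of the genotypes did not overlap for 7 of the 10, which added Ifngr2, Tyk2 and Socs3 to the 4 named above, against 47.4% of all genes. Of the 10 log2 fold changes 9 were below 0. Their median was −0.13, beside 0.00 over all genes tested.

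Ifnb1 had 334 and 253 normalized counts in stimulated Ncoa6-sufficient cells and 204 and 157 in stimulated Ncoa6-KO cells. All knockout values lay below the controls, at 61.5% of their level (log2 fold change −0.70 ± 0.198, interval −1.14 to −0.26, adjusted p = 0.0867). The unscaled counts behind these values were few, 241 and 184 against 156 and 112. The adjusted p fell to 0.011 when no filter on low counts was applied, and rose to at most 0.531 when a library was left out.

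Socs3 had 17732 and 13214 normalized counts in stimulated Ncoa6-sufficient cells and 11118 and 9101 in stimulated Ncoa6-KO cells. The groups did not overlap, and the knockout held 65.3% of the control level (log2 fold change −0.61 ± 0.192, interval −1.04 to −0.19, adjusted p = 0.118). The result depended on the setting. It passed the threshold under 5 of 16 alternatives, with an edgeR adjusted p as low as 1.03e-05. It passed when a resting Ncoa6-KO library was left out, with an adjusted p of 0.0493 without replicate 1 and 0.0453 without replicate 2, and otherwise the adjusted p reached 0.558 when a library was left out. Socs1, the other inhibitor, had 1417 and 1122 against 1217 and 1261. These libraries overlapped (−0.04 ± 0.127, interval −0.32 to 0.24).

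Ifnar1 had 8153 and 7709 against 6205 and 6385 normalized counts after LPS and MSU, a log2 fold change of −0.33 ± 0.0932 (79.4% of the control level, adjusted p = 0.0846 with edgeR and 0.00939 with DESeq2). Ifnar2 had 5309 and 4985 against 4347 and 3801, −0.34 ± 0.123 on the log2 scale (79.2% of the control level, adjusted p = 0.184). For both chains each knockout library was below each control library. Ifngr2 had 5320 and 4601 against 4433 and 4351 (−0.18 ± 0.103, interval −0.40 to 0.05).

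The kinases again differed little. Jak1 had 7472 and 6530 against 6877 and 6457, with an interval of −0.30 to 0.16 on the log2 scale. Jak2 had 15988 and 15959.9 against 15974 and 14881 (interval −0.26 to 0.16), and Tyk2 12439.6 and 12743 against 12069 and 11730.0 (interval −0.30 to 0.14). The Tyk2 libraries did not overlap, but by a difference of only −0.08 ± 0.101 on the log2 scale.

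For each member the response to LPS and MSU was larger than its own knockout effect in either condition. It was called for 10 of 10 members in each genotype, 9 higher and Ifngr1 lower. Among the 9, Ifnb1 passed the filter on low counts only through its stimulated libraries, so its call is no support beside the shares of all genes. Of all genes tested, 55.2% were called in Ncoa6-sufficient cells (24.7% higher and 30.5% lower) and 53.1% in Ncoa6-KO cells (25.2% higher and 27.9% lower). The unadjusted p was under 0.05 for 59.8% and 58% of all genes, and the libraries did not overlap for 78.5% and 76.5%. With DESeq2's size factors the split in Ncoa6-sufficient cells was 4973 higher and 4730 lower in place of 4362 and 5375, since that scaling moved the median of all genes by 0.112 on the log2 scale. The members kept their directions under either scaling.

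Ifnb1 rose from 2 counts to 425 over the 2 Ncoa6-sufficient libraries and from 3 to 268 over the 2 Ncoa6-KO libraries. Scaled for library size these are ratios of 366 (exact 95% counting interval 100.7 to 3033) and 156 (52.7 to 759), and the wide, overlapping intervals follow from the few resting counts. Socs3 rose by 7.81 ± 0.273 (SE) on the log2 scale in Ncoa6-sufficient and 7.60 ± 0.274 in Ncoa6-KO cells, which are 225-fold and 194-fold. Socs1 rose 43.1-fold and 46.8-fold. In both genotypes the lowest stimulated library of each inhibitor lay far above its highest resting library.

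Among the kinases, Jak2 rose 21-fold in Ncoa6-sufficient and 21.7-fold in Ncoa6-KO cells, and Tyk2 rose 6.22-fold and 5.98-fold. Jak1 rose only 1.35-fold and 1.28-fold. The call for Jak1 in Ncoa6-KO cells (adjusted p = 0.0124) was lost without replicate 1 of the stimulated Ncoa6-KO group (0.0835) and without replicate 2 of the resting Ncoa6-KO group (0.0677).

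The receptor chains moved by less and not in 1 direction. Ifnar1 rose 1.92-fold in Ncoa6-sufficient and 1.66-fold in Ncoa6-KO cells, Ifngr2 1.88-fold and 1.77-fold, and Ifnar2 1.41-fold and 1.36-fold. The Ifnar2 call in Ncoa6-KO cells (adjusted p = 0.0101) was lost without the same libraries that decided Jak1 (adjusted p = 0.0873 and 0.0748). Ifngr1 fell, to 40.9% of its resting level in Ncoa6-sufficient cells and to 65.1% in Ncoa6-KO cells.

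Ifngr1 was also the member whose knockout effect turned from rest to stimulation. After LPS and MSU its normalized counts were 1621 and 1914 in Ncoa6-sufficient and 2015 and 2271 in Ncoa6-KO cells, so that each knockout library was above each control, where at rest each had been below. The log2 fold change was 0.28 ± 0.120 (interval 0.01 to 0.54, adjusted p = 0.263). The difference of the 2 knockout effects was 0.67 ± 0.168 on the log2 scale (interval 0.30 to 1.04). Its unadjusted p from edgeR was 0.0022, but adjusted over all genes it was 0.479. No member was called for a difference of the knockout effects. Over all genes tested edgeR called 0 (0.0%), with 1045 genes (5.93%) at an unadjusted p under 0.05, and DESeq2 called 45. The 2 knockout effects share no libraries, but may share mice. The responses of the 2 genotypes are the same 4 groups paired otherwise and add no independent evidence.

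For the other members the difference of the knockout effects was small and uncertain. It was −0.21 ± 0.132 for Ifnar1, −0.05 ± 0.174 for Ifnar2, −0.08 ± 0.146 for Ifngr2, −0.07 ± 0.145 for Jak1, 0.04 ± 0.141 for Jak2, −0.06 ± 0.144 for Tyk2, 0.12 ± 0.279 for Socs1 and −0.21 ± 0.358 for Socs3, on the log2 scale with SE. No value is given for Ifnb1, whose resting counts were at or under 3.

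**Figure D3:**
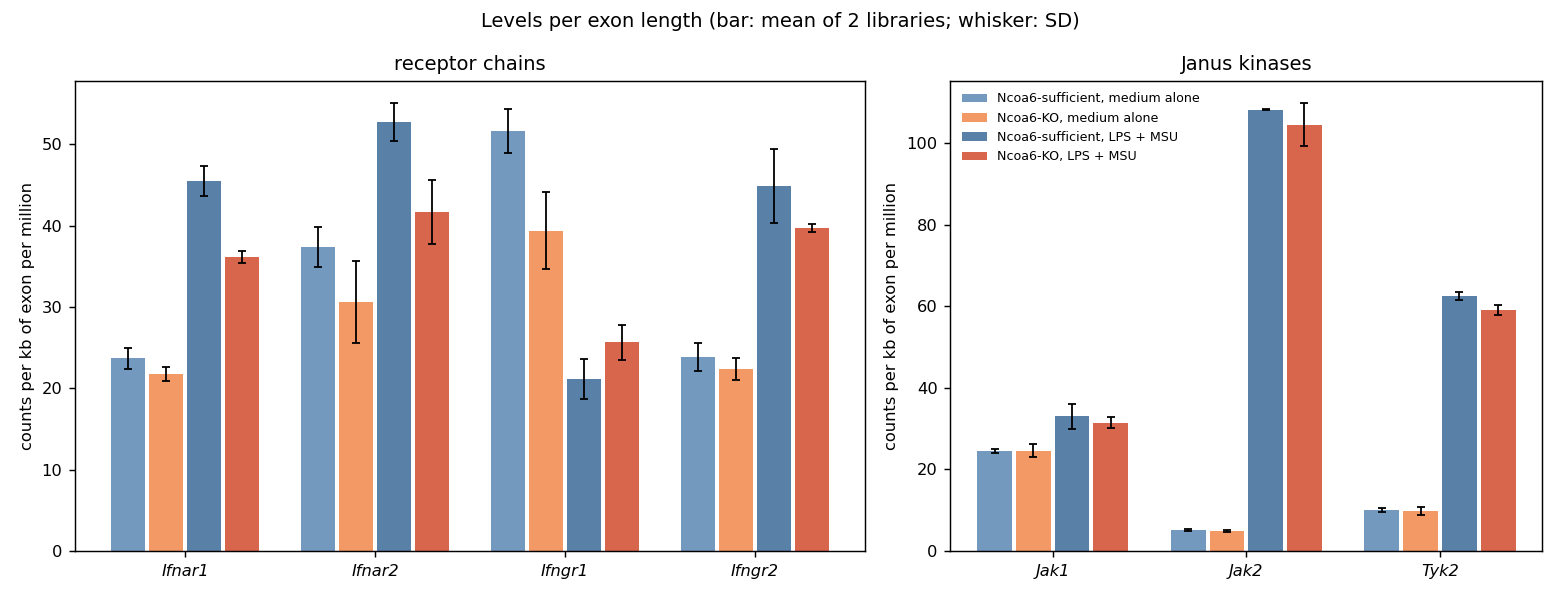
Levels of the 4 receptor chains and 3 kinases as RPKM-like units (scaled counts per kilobase of exon, per library size). Bars are means of 2 libraries and whiskers are SDs. Ifngr1 leads at rest and is the lowest receptor chain after LPS and MSU, while Jak2 passes Jak1.

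Between genes, levels were set side by side only per length, in RPKM-like units, which are counts divided by kilobases of annotated exon and by scaled library size (mean ± SD, n = 2 libraries). In resting Ncoa6-sufficient cells Ifngr1 was highest at 51.7 ± 2.72, followed by Ifnar2 at 37.4 ± 2.48. Jak1 (24.5 ± 0.424), Ifngr2 (23.9 ± 1.73) and Ifnar1 (23.7 ± 1.29) came next, and neighbours among these 3 overlapped. Tyk2 (10.1 ± 0.535), Jak2 (5.14 ± 0.296), Socs3 (0.814 ± 0.112), Socs1 (0.347 ± 0.0799) and Ifnb1 (0.0366 ± 0.00353) followed, each apart from the next.

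Resting Ncoa6-KO cells had the same order. Ifngr1 stood at 39.4 ± 4.73, Ifnar2 at 30.6 ± 5.02, Jak1 at 24.6 ± 1.59, Ifngr2 at 22.4 ± 1.36 and Ifnar1 at 21.7 ± 0.844, and the last 2 overlapped. The knockout thus did not change which chain was most abundant.

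The order after LPS and MSU was different. In stimulated Ncoa6-sufficient cells Socs3 led at 182 ± 37.7, ahead of Jak2 at 108 ± 0.133 and Tyk2 at 62.5 ± 1.07. Ifnar2 (52.7 ± 2.34), Ifnar1 (45.5 ± 1.80), Ifngr2 (44.9 ± 4.6), Jak1 (33.0 ± 3.14) and Ifngr1 (21.2 ± 2.48) followed, with overlap between Ifnar1 and Ifngr2. Socs1 (14.9 ± 2.44) and Ifnb1 (13.3 ± 2.59) came last and overlapped. In stimulated Ncoa6-KO cells Socs3 (119 ± 16.8) overlapped Jak2 (105 ± 5.24), and Ifnar2 (41.7 ± 3.95) overlapped Ifngr2 (39.7 ± 0.523). Ifnar1 (36.1 ± 0.732) was below Ifngr2 there.

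Ratios within a library show the same shifts without any scaling between libraries. The Ifngr1 to Ifngr2 ratio per length was 2.14 and 2.20 in resting Ncoa6-sufficient libraries and 1.83 and 1.68 in resting Ncoa6-KO libraries. After LPS and MSU it was 0.403 and 0.550 against 0.602 and 0.691. The 2 type II chains therefore changed places in both genotypes, and the knockout libraries lay between the resting and the stimulated control values in both conditions. The Ifnar1 to Ifnar2 ratio moved less, from 0.629 and 0.640 at rest to 0.861 and 0.867 after stimulation in Ncoa6-sufficient cells, and from 0.654 and 0.781 to 0.80 and 0.941 in Ncoa6-KO cells.

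The kinases shifted relative to each other as well. The Jak2 to Jak1 ratio per length was 0.216 and 0.204 in resting Ncoa6-sufficient libraries and 3.07 and 3.51 in stimulated ones, and 0.194 and 0.199 against 3.34 and 3.31 in Ncoa6-KO libraries. The Tyk2 to Jak1 ratio went from 0.420 and 0.399 to 1.75 and 2.05, and from 0.411 and 0.393 to 1.85 and 1.91. The genotypes overlapped in these ratios except for Jak2 to Jak1 at rest, where both knockout libraries were lower. The Socs3 to Socs1 ratio was 12.6 and 11.8 in stimulated Ncoa6-sufficient and 9.19 and 7.26 in stimulated Ncoa6-KO libraries, and these groups did not overlap.

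**Figure D4:**
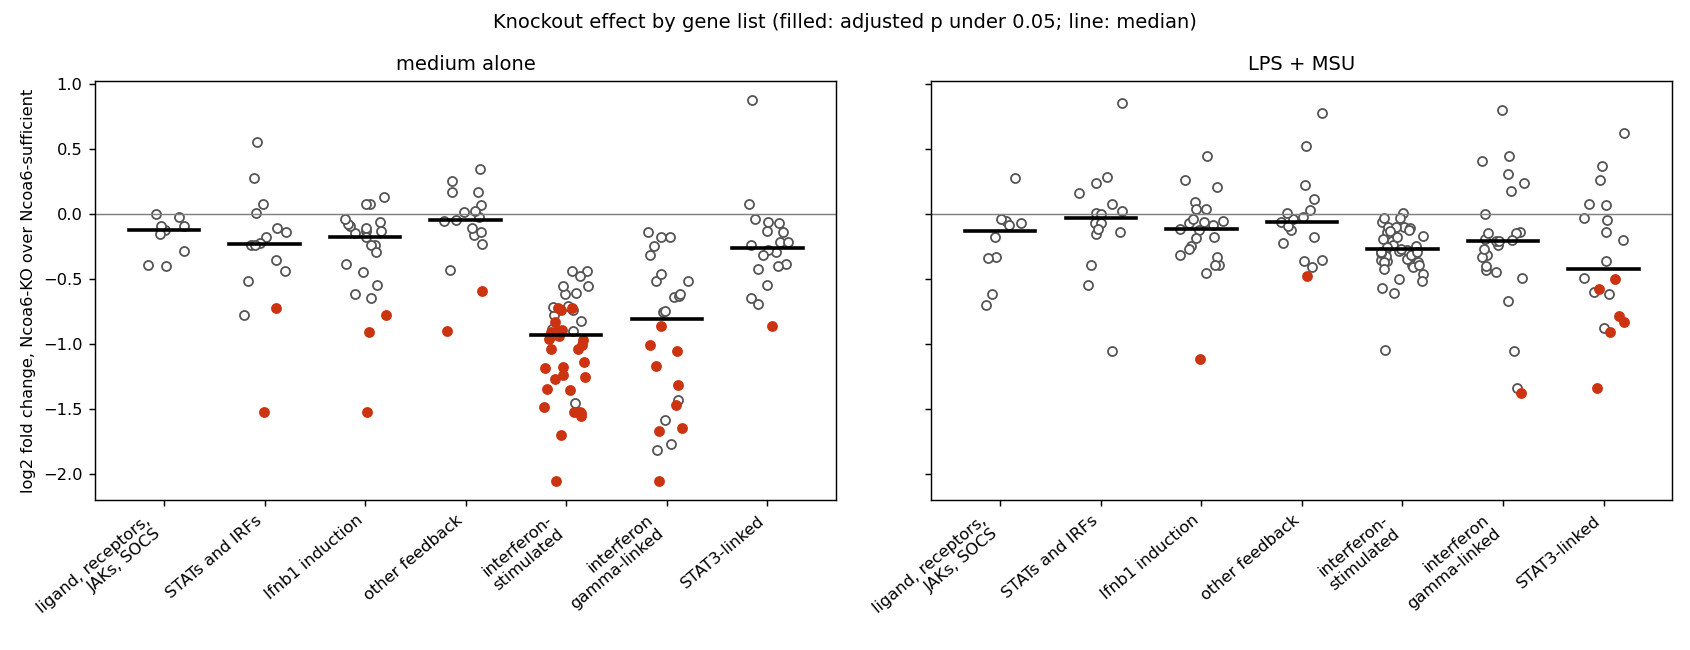
Log2 fold change of Ncoa6-KO over Ncoa6-sufficient cells for the members and 6 lists of genes up- or downstream of them, in medium alone (left) and after LPS and MSU (right). Points are genes, filled where the edgeR adjusted p is under 0.05, and lines are medians (Ifnb1 is left out in medium alone). At rest the interferon-stimulated genes lie below 0 as a group, at a median of −0.93, and the members shown lie between −0.40 (Socs3) and 0.00 (Jak1).

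The genes downstream of this circuit stood apart from its measured members at rest. Of 45 interferon-stimulated genes tested, 28 fell in the resting knockout, none rose, and all 45 values were below 0 (median log2 fold change −0.93, beside −0.03 over all genes tested, of which 1.3% were called lower). The list was chosen with earlier results of these data known, so these counts describe the list and do not test it. Mx1, an antiviral GTPase, had 751 and 809 normalized counts in Ncoa6-sufficient and 334 and 205 in Ncoa6-KO cells (−1.53 ± 0.206, adjusted p = 0.00593). Zbp1, a sensor of unusual nucleic acids, had 516 and 324 against 144 and 54.4 (−2.05 ± 0.344, adjusted p = 0.0178), and Oasl1, a member of the oligoadenylate synthetase family, 192 and 142 against 70.2 and 42.1 (−1.55 ± 0.233, adjusted p = 0.00985). Among the members 0 of 10 were called and 8 of 10 values were below 0, at a smaller median of −0.11 with Ifnb1 included. Ifnb1, at 1 or 2 counts per resting library, could not show a difference. The 95% intervals of Ifnar2 and Ifngr1 lay below 0, so a smaller shift of the receptors is not excluded.

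The number of interferon-stimulated genes called depended on single libraries. It was 0 without Ncoa6-sufficient replicate 1 in medium alone, 8 without replicate 2 of that group, 8 without Ncoa6-KO replicate 2 in medium alone, 17 without Ncoa6-KO replicate 2 after LPS and MSU, and 42 without Ncoa6-KO replicate 1 in medium alone. Without Ncoa6-sufficient replicate 1 in medium alone, the calls for Mx1 (adjusted p = 0.0691), Zbp1 (0.234) and Oasl1 (0.154) were lost, and that for Mx1 also without replicate 2 (0.0509). The list's median stayed between −1.28 and −0.67 when any library was left out. After LPS and MSU 0 of 45 were called with edgeR, DESeq2 called 1 and limma-voom 0, and the median was −0.27, beside 0.00 over all genes. With edgeR 9 of 45 had an unadjusted p under 0.05, close to the 17.4% of all genes tested. Of the 45 values 44 were still below 0, where 8697 of 17625 were over all genes tested. The difference of the 2 knockout effects was above 0 for 45 of 45 of these genes (median 0.65), with 28 at an unadjusted p under 0.05 and 0 called by edgeR after adjustment. Over all genes tested it was above 0 for 10321 of 17625 (median 0.055), with 5.93% at an unadjusted p under 0.05.

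Between receptor and target stand the STATs and IRFs. Of these, 2 of 16 fell at rest with edgeR, against 1.3% of all genes (6 were called with DESeq2 and 3 with limma-voom). After LPS and MSU none was called with edgeR, DESeq2 called 1 and limma-voom 0. With edgeR 3 of 16 had an unadjusted p under 0.05 there, close to the 17.4% of all genes tested. The resting count of 2 was 0 without Ncoa6-sufficient replicate 1 in medium alone, 5 without Ncoa6-KO replicate 1 in medium alone, and 1 without any of the other 6 libraries. Irf7, a factor that interferon induces and that amplifies interferon production, had 2857 and 2281 against 1101 and 680 normalized counts at rest (−1.53 ± 0.201, adjusted p = 0.00568). Stat2, an ISGF3 subunit, had 4150 and 3951 against 2934 and 1968 (−0.72 ± 0.157, adjusted p = 0.0464). Irf9, another ISGF3 subunit, had 1786 and 1713 against 1456 and 1118 (−0.44 ± 0.119, adjusted p = 0.0998) and missed the threshold. All 3 are also on the list of interferon-stimulated genes. The Irf7 call was lost without Ncoa6-sufficient replicate 1 in medium alone (adjusted p = 0.0926), and that for Stat2 under 7 of the 8 omissions of a library. Irf9 passed with DESeq2 (adjusted p = 0.0477).

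Upstream of Ifnb1, 3 of 23 genes of its induction pathway fell at rest, and 1 of 23 after LPS and MSU, with medians of −0.18 and −0.11, where 1.3% and 1.63% of all genes were called lower. At rest DESeq2 and limma-voom called 6 each, and edgeR called 5 without Ncoa6-KO replicate 1 in medium alone, 0 without Ncoa6-sufficient replicate 1 in medium alone and 1 without any of the other 6 libraries. After stimulation DESeq2 called 2 and limma-voom 0, and edgeR called 0 without Ncoa6-sufficient replicate 1 or Ncoa6-KO replicate 2 after LPS and MSU or either Ncoa6-sufficient library in medium alone, and 2 without Ncoa6-KO replicate 1 after LPS and MSU. The resting 3 were Irf7, Ddx58, which encodes the RNA sensor RIG-I and is itself interferon-induced (−0.91 ± 0.185, adjusted p = 0.0375), and Cd14, a co-receptor for LPS (−0.78 ± 0.15, adjusted p = 0.0298). Irf7 and Ddx58 are also on the list of interferon-stimulated genes, and Irf7 on that of STATs and IRFs, so these calls are counted more than once. Cd14, also among the macrophage markers, had 8612 and 7115 normalized counts in Ncoa6-sufficient and 5228 and 3937 in Ncoa6-KO cells. Without Ncoa6-sufficient replicate 1 in medium alone none of the 3 was called. For Ddx58 and Cd14 the call was also lost under 6 other omissions of a library.

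The remaining lists lie beyond the type II receptor and beyond SOCS3. Of 26 tested genes linked to interferon gamma, 9 fell at rest (median −0.80) and 1, Fcgr1, after LPS and MSU (median −0.21). Of all genes tested, 1.3% and 1.63% were called lower, with medians of −0.03 and 0.00. Fcgr1, the high-affinity IgG receptor, had 4911 and 3033 against 1213 and 697 normalized counts at rest (−2.05 ± 0.317, adjusted p = 0.0115) and 33934 and 23328 against 13424 and 8582 after stimulation (−1.38 ± 0.305, adjusted p = 0.0353). Cxcl10, a chemokine that type I interferon also induces, had 250 and 330 against 93.2 and 88.7 at rest (−1.67 ± 0.176, adjusted p = 0.00205), and this call held under every alternative tried. The count of 9 became 1 without Ncoa6-sufficient replicate 1, 3 without its replicate 2, 3 without Ncoa6-KO replicate 2 and 14 without Ncoa6-KO replicate 1, all in medium alone. The resting Fcgr1 call was lost without Ncoa6-sufficient replicate 1 (0.154) or Ncoa6-KO replicate 2 (0.0628) in medium alone, and the stimulated call without Ncoa6-sufficient replicate 1 (0.251) or Ncoa6-KO replicate 2 (0.289) after LPS and MSU.

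Of 20 genes linked to STAT3, the factor that SOCS3 restrains and that induces Socs3, 1 fell at rest and 6 fell after LPS and MSU (medians −0.26 and −0.43), against 1.3% and 1.63% of all genes called lower. Socs3 is itself on this list and was not among the 6. Il1rn, the interleukin-1 receptor antagonist, had 63118 and 37978 against 22727 and 17200 normalized counts after stimulation (−1.34 ± 0.243, adjusted p = 0.0157). Il4ra, a receptor chain for interleukin-4, had 6119 and 4200 against 2720 and 2772 (−0.91 ± 0.163, adjusted p = 0.0152). Bcl3, an atypical IkappaB protein, fell in both conditions (−0.86 ± 0.174 and −0.83 ± 0.162, adjusted p = 0.0363 and 0.0214), and Cebpd, a transcription factor, fell after stimulation (−0.78 ± 0.151, adjusted p = 0.0205). The count of 6 became 0 without Ncoa6-sufficient replicate 1 or without Ncoa6-KO replicate 2, and 3 without Ncoa6-KO replicate 1, all after LPS and MSU. The 4 named calls after stimulation were lost in both fits that called none. The resting Bcl3 call was lost under 5 of 8 omissions.

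Other feedback genes and relatives of the receptor chains were closer to the members. Of 17 other genes of JAK and STAT feedback, 2 were called lower at rest and 1 after LPS and MSU, against 1.3% and 1.63% of all genes. Usp18, an inhibitor that acts at IFNAR2 and is interferon-induced, fell at rest (710 and 642 against 425 and 298, −0.90 ± 0.166, adjusted p = 0.025). Usp18 is also on the list of interferon-stimulated genes. Ptpn6, the phosphatase SHP-1, fell at rest (8289 and 7856 against 5573 and 5147, −0.59 ± 0.116, adjusted p = 0.0317) and after LPS and MSU (14169 and 13489 against 10953 and 8922, −0.48 ± 0.116, adjusted p = 0.0498). The resting Usp18 call was lost without Ncoa6-sufficient replicate 1 (0.297), its replicate 2 (0.0907) or Ncoa6-KO replicate 2 (0.101) in medium alone, and the resting Ptpn6 call under 6 of 8 omissions of a library. The stimulated Ptpn6 call was lost under 5 of 8 omissions. Of 5 tested chains of the same receptor family outside the interferon receptors, edgeR called 0 in either condition. In each, 1 had an unadjusted p under 0.05, against 12.8% of all genes at rest and 17.4% after LPS and MSU.

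Levels of the macrophage markers moved with genotype beside these results. The sum of the 9 markers was 390789 to 458223 normalized counts in Ncoa6-sufficient and 250570 to 289769 in Ncoa6-KO cells at rest, and 508638 to 578372 against 367432 to 393859 after LPS and MSU. Fcgr1, Cd14 and Lyz2 fell at rest, and 4 markers after stimulation, Fcgr1, Lyz2 and Itgam among them. Of all genes tested, 1.3% and 1.63% were called lower. Much of the sum was Lyz2, the lysozyme gene whose locus drives the Cre, with 272098 and 209893 against 127555 and 111994 normalized counts at rest (−1.01, adjusted p = 0.0172). Only the knockout mice carried the Cre, so for Lyz2, and for every other gene here, an effect of the Cre cannot be told apart from that of Ncoa6 loss. Csf1r, Cd68 and Adgre1 did not pass the test (resting log2 fold changes −0.25, −0.13 and −0.36). Markers of plasmacytoid dendritic cells, which make type I interferon, summed to 5065 to 8175 against 3500.2 to 4797 normalized counts at rest and to 19746 to 26745 against 16246 to 20728 after stimulation. Ly6d was at 0 in all libraries, and 0 of 5 tested markers were called by edgeR in either condition (1 and 0 at an unadjusted p under 0.05). Only 3 of the 8 markers exceeded 3 counts in both libraries of each resting group, and 5 in each stimulated group. Bst2 is also on the list of interferon-stimulated genes, so these sums are not separate from that list and do not measure the number of such cells. Conventional dendritic cell markers summed to 774 to 789 against 472 to 597 at rest and 1231 to 1270.4 against 685 to 881 after stimulation, where 1 of 7 tested (Itgax, −0.74 ± 0.151, edgeR adjusted p = 0.0255) was called lower. At rest the neutrophil, B cell and stromal lists summed to 326 to 348 against 348 to 392, 355 to 421 against 400.4 to 596, and 393 to 439.8 against 143 to 471. After stimulation they summed to 533 to 697 against 572 to 631, 92.8 to 96.4 against 172 to 221, and 921 to 971 against 353 to 844. Of 4 B cell markers tested, 1 (Ighm, 1.53 ± 0.247, edgeR adjusted p = 0.0104) was called higher after stimulation. The 13 markers of T and NK cells summed to 75.7 to 111 against 30.7 to 73.7 at rest and 56.5 to 66.5 against 26.6 to 32.7 after stimulation, nearly all of it Cd4, the only one of them tested (−0.82 ± 0.349 and −1.08 ± 0.439, unadjusted p = 0.0380 and 0.0314, edgeR adjusted p = 0.342 and 0.228). Itgax, Ighm and Cd4 were named after their values were seen. The part of these shifts in the results above was not tested. In bulk RNA, fewer cells that express a gene and less of its RNA per cell cannot be told apart.

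The genes nearest to each member in profile were named by the root mean square difference of centred log2 levels over the 8 libraries, among 11218 genes whose mean normalized count was 50 or more. Jak1 had the closest match, Reep3 at 0.0344, followed by Pias1 and Ppp6c. Ifngr2 lay nearest to Lsm14a (0.0423), Ifnar2 to Tmem106a (0.0499), Ifnar1 to Ctla2b (0.0501) and Tyk2 to Rel (0.0582). Ifngr1 lay nearest to Usp36 (0.0899), and Ripk2 (0.108) and Malt1 (0.114) were among the 3 nearest to Jak2. The induced ligand and inhibitors had more distant neighbours, with Socs1 nearest to Il15ra (0.143), Ifnb1 to Lhx2 (0.168) and Socs3 to Tnfsf15 (0.253), which was also among those of Ifnb1 (0.388).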

How the data were processed

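RNA-seq libraries were made with a stranded mRNA kit and read paired-end. The authors aligned the reads with STAR 2.7.3a and deposited RSEM 1.3.3 expected counts per gene (GRCm38), which are estimated counts that need not be whole. Reads that fit several genes are shared out by RSEM, so near-identical genes are uncertain. Ifnar2 shares 315 bp of exon with Gm21970 on the same strand (0 counts in all libraries), and on the opposite strand Tyk2 shares 554 bp with 1700084C06Rik and Jak1 4 bp with Raver2.

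Here expected counts were rounded, genes with a sum of at least 10 over the 8 libraries were kept (17625), and edgeR 4.0.16 (R 4.3.3) was fitted to all 8 libraries in 4 groups with TMM scaling, 4 residual degrees of freedom and the quasi-likelihood test, two-sided, with Benjamini-Hochberg adjustment over all genes tested. A gene was called at an adjusted p under 0.05. Errors of log2 fold changes are SEs and intervals are 95%. Normalized counts are counts divided by the scaled library size and multiplied by 29332189, the mean of these sizes. Total counts were 25281955 to 33673552 per library, and intervals of summed counts cover counting error only. An exact permutation test of 2 against 2 libraries cannot go below p = 0.333 and was not used. Replicate counts differed by more than sampling noise. Lengths for levels per kilobase came from GENCODE exons on GRCm38, and promoter windows from RefSeq.

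The 10 genes, the lists and the motifs were chosen with earlier results of these data known. Named outside the 10 are Ncoa6, Stat2, Irf9, up to 4 called genes per list and comparison by size of change, and the 3 genes nearest each member in profile, of which some are given. Some items that this rule names are not reported here. Markers, lists with fewer named genes and positions are descriptions. DESeq2 1.42.0, DESeq2 size factors, other filters, limma-voom (limma 3.58.1), the compared libraries alone, a replicate block and leaving out each library were the alternatives. The block within each genotype was added after the data were seen.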

Additional observations from a re-analysis of the deposited data

How the results depend on the processing

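In 788 refits of single members, 738 kept direction and side of the threshold, 17 passed it, 4 lost it and 29 changed sign. In medium alone 1 member (Ifngr1) was called with no filter on low counts, and after LPS and MSU 1 (Ifnar1) with DESeq2 and 2 (Ifnb1 and Socs3) with no filter. Leaving out a library gave 0 members called in medium alone, 0 to 1 after LPS and MSU, 10 for the response of Ncoa6-sufficient cells, 8 to 10 for that of Ncoa6-KO cells and 0 for the difference of the knockout effects, where 1 (Ifngr1) was called with no filter. Interferon-stimulated genes called in medium alone numbered 28, against 45 with no filter, 18 with the compared libraries alone and 0 to 42 with a library left out, and after LPS and MSU 0, against 1 with DESeq2, 15 with no filter and 0 with any library left out. The resting interferon gamma-linked count was 15 with DESeq2 and 18 with no filter, in place of 9.

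Replicate numbers are shared by the groups, but nothing ties a number to a mouse, and same-numbered deviations correlated between groups by 0.0333 to 0.334 over 11219 genes, so no pairing was taken. With a replicate block across all groups 1 member (Ifngr1) was called in medium alone and 4 (Ifnb1, Ifnar1, Ifnar2, Socs3) after LPS and MSU. With a block within each genotype, chosen after seeing the data, these were 1 and 3, and 1 (Ifngr1) for the difference of the knockout effects. Interferon-stimulated genes called were 45 under either block in medium alone, and 12 and 13 after LPS and MSU.

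Values that changed sign are given on the log2 scale. In medium alone Jak1 was −0.0014 with no filter, −0.00021 with the replicate block across all groups and −0.0013 with that within each genotype, where Tyk2 was 0.015. With a library left out, Jak1 ranged from −0.065 to 0.067, Tyk2 from −0.13 to 0.073 and Socs1 from −0.38 to 0.090, and after LPS and MSU Jak1 from −0.18 to 0.019 and Socs1 from −0.21 to 0.13. For the difference of the knockout effects, Jak2 was −0.013 with DESeq2 and −0.013 with its size factors. With a library left out it ranged from −0.065 to 0.098 for Jak2, −0.21 to 0.13 for Ifnar2, −0.15 to 0.045 for Tyk2, −0.13 to 0.35 for Socs1 and −0.59 to 0.39 for Socs3. The cause of these changes was not tested.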
